A study of Mus musculus with 4 samples.

Results

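Interferon-stimulated antiviral genes were examined in mouse leukemic cells that carried the MLL-AF9 fusion gene, comparing cells labelled wild type with cells labelled Ezh2 KO. The set was a list of 42 genes. A probe set belonged to it when the platform's annotation gave 1 of these genes as its single symbol, which held for 68 of the 45101 probe sets on the array and for 39 of the 42 genes. Another 6 probe sets had several symbols, a member among them, and were left out. After a filter on dim signals 36 of the 13916 genes tested were members. Ifi204, Oas3 and Mx2 fell under the filter, and Ifi205, Isg15 and Ifi44 had no probe set under that rule, so their levels are not analysed here.

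The leukemic cells were purified from bone marrow of C57BL/6 recipients, and RNA equivalent to 10000 cells was labelled with biotin for 1-colour Affymetrix arrays. Both groups carried MLL-AF9. The wild-type group held 2 arrays, from recipients given wild-type marrow cells. The Ezh2 KO group also held 2 arrays; its genotype entry names Ezh2, while its protocol entry names donor marrow of the genotype Ink4a-/-Arf-/-, and the labels do not resolve this. Ezh2 encodes the catalytic subunit of the Polycomb complex PRC2. The ages of the mice are not stated, nor is it stated that the 2 arrays of a genotype hold RNA of different mice; the p-values therefore cover only the spread among these 4 samples, and that spread may be technical.

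Cells that recognise viral nucleic acid make type I interferon, which acts through its receptor, JAK kinases and the factor ISGF3 on genes with an interferon-stimulated response element. Interferon gamma acts through another receptor on genes with a gamma-activated sequence, and many genes answer to both. The products detect viral RNA or DNA, block its translation or copying, hold virions at membranes, or attach the ubiquitin-like protein ISG15 to other proteins.

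On the arrays, the representing probe set of Ezh2 read 5216 and 5315 in the wild type and 4989 and 4991 in Ezh2 KO, a log2 change of -0.08 (limma adjusted p = 0.484). Where its probes lie relative to a deleted exon is unknown, and the value is no check of the deletion. The 3-prime to 5-prime signal ratio of actin ranged from 1.21 to 1.26 over the arrays of both groups. With 2 arrays a group, the precision of the values is limited by their number. In such bulk RNA, fewer cells of a type and less RNA per cell cannot be told apart.

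Of the 36 members tested, 14 fell in the Ezh2 KO cells and 0 rose (limma, adjusted p under 0.05). Across all genes tested 6.01% were lower and 5.55% higher by the same rule, against 38.9% of the members that were lower. The list was chosen with earlier results of these data known, so these shares are a description and not a test. The median log2 change was -0.43 over the 36 members and 0.0066 over all genes tested; intensities are linear, and changes are differences of log2(intensity + 16), which understate the change of dim genes. The falls ran from 1.34-fold for Ifi35 to 5.96-fold for Mndal. The calls were spread unevenly over the list. All 4 members of the PARP group, the nucleotide pool enzymes Samhd1 and Cmpk2, tetherin, and Mndal, Zbp1 and Dhx58 of the sensor group fell. None of the 8 tested members that act on viral RNA and translation, the Ifit, Oas and Oasl genes among them, passed. Of these 8, 5 had a negative log2 change. They include the dim genes Oasl2 (-1.24), Ifit3 (-0.62) and Ifit1 (-0.45), whose wide intervals do not show an unchanged level. Oas1a, a 2-5A synthase gene counted in another list, was called lower (-0.45). The difference between these role groups was not tested.

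**Figure D1:**
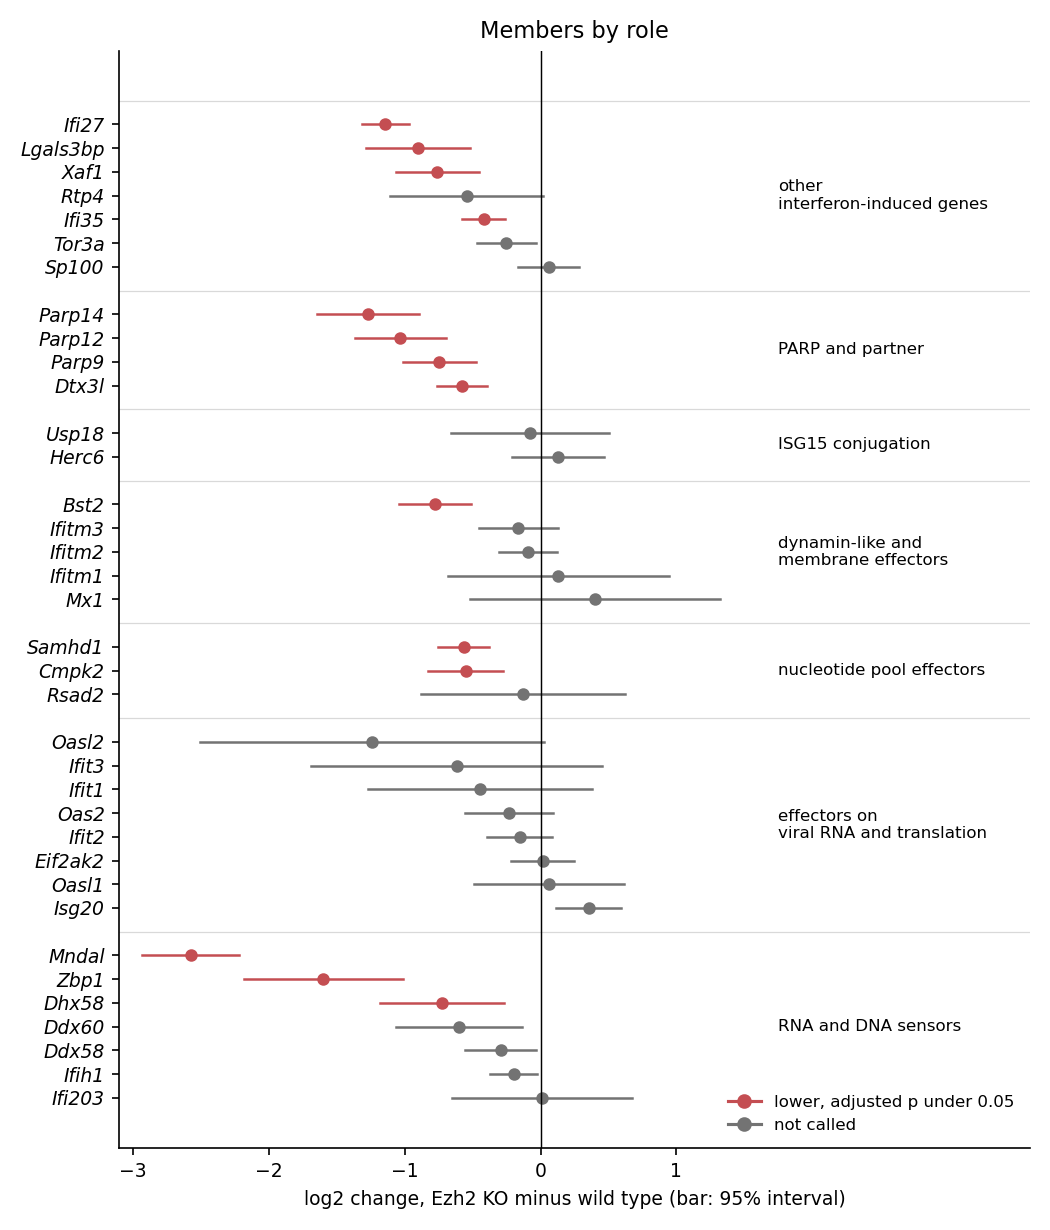
Log2 change of each of the 36 tested members, Ezh2 KO minus wild type (2 arrays each), grouped by role, with 95% intervals from the limma fit. Red points are the 14 members lower at an adjusted p under 0.05; the 4 genes of the PARP group lie between -0.58 and -1.27, and the 8 effectors on viral RNA and translation are all grey.

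The fit let the prior variance depend on intensity. Without that dependence limma called 0 members and 0 genes, while 16 members and 2595 genes had an unadjusted p under 0.05, against 19 and 3462 with it. The 14 members then had adjusted p between 0.0689 and 0.221. By array, 22 of the 36 members had both Ezh2 KO values under both wild-type values and 1 had them over both, where 26.2% of all genes tested lay in each of these states.

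**Figure D2:**
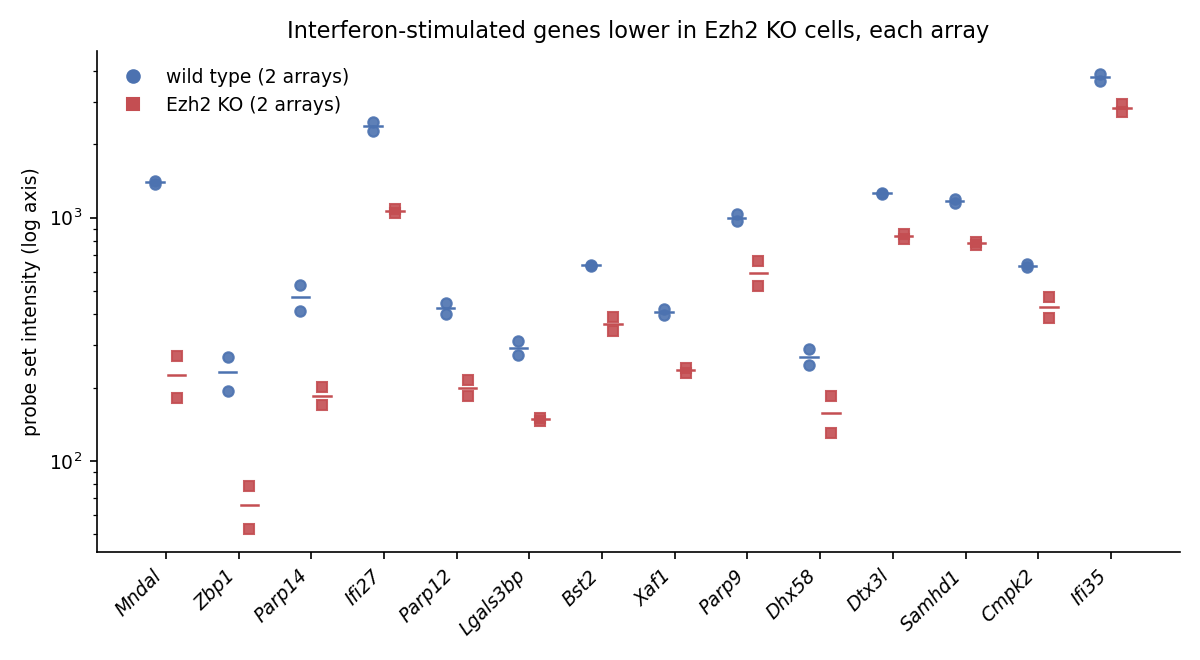
Intensity on each array (log axis) of the 14 members that fell, with the mean of each group as a bar; circles are wild-type arrays and squares Ezh2 KO arrays. In all 14 genes both squares lie under both circles, from Mndal, at 1378 and 1411 against 181 and 269, to Ifi35, at 3913 and 3647 against 2927 and 2724.

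In the group listed as sensors, 3 of 7 tested members fell and 0 rose. Mndal, a member of the Ifi200 family of interferon-inducible proteins that bind DNA, read 1378 and 1411 on the wild-type arrays and 181 and 269 on the Ezh2 KO arrays. The groups lay far apart, with a log2 change of -2.57 (SE 0.16, adjusted p = 1.27e-05 in limma). A second Mndal probe set read 1121 and 1125 against 198 and 209, and in a limma fit over probe sets it also fell (log2 change -2.38, adjusted p = 5.84e-06). The first set carries the suffix by which Affymetrix marks probes that may match other transcripts, and the Ifi200 genes are close relatives, so the share of Mndal in its signal is uncertain.

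Ifi203, a neighbour of Mndal with 1 coding gene between them in the RefSeq table, did not pass. Its only probe set with a single symbol read 79.9 and 62.2 in the wild type and 74.1 and 68.7 in Ezh2 KO. The groups overlapped (log2 change 0.01, 95% interval -0.65 to 0.67, adjusted p = 0.987 in limma). The set is dim, and the first Mndal set may match other Ifi200 transcripts. These readings therefore do not settle whether the 2 genes differed. The RefSeq promoter tables of both genes hold the core of the interferon-stimulated response element, searched as GAAANNGAAA on both strands, and they are shown because the stretch around the match is the same in both genes over 60 bases. The first lies on the minus strand at chr1:173880189-173880248 and the second on the minus strand at chr1:173942493-173942552 (GRCm38.p6), written in the direction of the gene, with the match in capitals.
Mndal: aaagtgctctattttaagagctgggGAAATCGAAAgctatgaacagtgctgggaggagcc
Ifi203: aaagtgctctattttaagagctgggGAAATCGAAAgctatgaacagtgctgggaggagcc
In a gapped alignment with free ends (match 1, mismatch -1, gap -2), the windows of the 2 genes paired 289 bases, of which 282 were identical and 7 differed, with 10 gap positions. The table lists 2 windows for each gene, and the other window of Mndal holds a further match on the reverse strand. Of the Ifi200 genes on the list, Ifi204 also had a probe set. Its readings of 0.298, 8.94, 0.473 and 1.29 stayed below the filter intensity of 19.96.

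Zbp1, a sensor of left-handed nucleic acid that can start necroptosis, read 267 and 194 against 79.0 and 52.5 and fell 3.03-fold (log2 change -1.60, SE 0.26, adjusted p = 0.00408). A further probe set of Zbp1 read 85.8 and 104 against 20.7 and 38.3, again without overlap, but its adjusted p in the probe set fit was 0.0501. Its log2 change was -1.18 with a pseudocount of 64.

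The representing probe sets of the 3 RIG-I family helicases and of their relative Ddx60 read lower on both Ezh2 KO arrays, by unequal amounts. Dhx58 encodes LGP2, which modulates the other RIG-I-like receptors. It read 287 and 249 against 185 and 130 (log2 change -0.72, SE 0.20) and passed narrowly at an adjusted p of 0.048 in limma. The call was lost without wild-type replicate 1 (adjusted p = 0.2), wild-type replicate 2 (0.097) or Ezh2 KO replicate 2 (0.191), without the filter (0.111) and with all its probe sets averaged (log2 change -0.45, adjusted p = 0.302). Of its 2 further probe sets 1 was also lower on both Ezh2 KO arrays, and the other overlapped at a log2 change of 0.05.

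Ddx60 read 202 and 172 against 112 and 122 and did not pass (log2 change -0.60, adjusted p = 0.095). Centring each array on its median brought it past the threshold (adjusted p = 0.0484). Ddx58, the receptor RIG-I itself, read 690 and 603 against 556 and 492 (log2 change -0.29, 95% interval -0.55 to -0.03, adjusted p = 0.147). The further probe sets of Ddx58 overlapped, at log2 changes of -0.33 and -0.02. Ifih1, which encodes MDA5, a sensor of long double-stranded RNA, read 1411 and 1386 against 1259 and 1175 (log2 change -0.20, 95% interval -0.37 to -0.02, adjusted p = 0.147). In the representing sets of these 3 genes the groups were separate, but the adjusted p missed the threshold.

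All 4 members of the PARP group fell, each with both Ezh2 KO arrays under both wild-type arrays. Their products are ADP-ribosyltransferases and Dtx3l, the ubiquitin ligase that forms a complex with Parp9. Parp14 read 526 and 413 in the wild type and 201 and 169 in Ezh2 KO, a 2.41-fold fall (log2 change -1.27, SE 0.17, adjusted p = 0.00133 in limma). Parp12 read 403 and 447 against 186 and 214, a 2.04-fold fall (log2 change -1.03, SE 0.15, adjusted p = 0.00217).

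Parp9 read 965 and 1036 against 524 and 664, a 1.68-fold fall (adjusted p = 0.00365). Dtx3l read 1267 and 1252 against 819 and 857, a 1.49-fold fall (adjusted p = 0.0019). Its second probe set read 1188 and 1234 against 829 and 815 and fell by a similar amount (log2 change -0.55 beside -0.58). Parp14, Dtx3l and Parp9 follow each other on chromosome 16 with 0 coding genes between them in the RefSeq table, and Parp12 lies elsewhere. A further probe set of Parp14, at 101 and 32.4 against 68.8 and 31.4, overlapped, and averaging both sets took the log2 change of Parp14 to -0.76 (adjusted p = 0.174).

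Of the 3 enzymes that act on the nucleotide pool, 2 fell. Samhd1, which breaks down deoxynucleoside triphosphates, read 1188 and 1150 against 798 and 773, a 1.48-fold fall (log2 change -0.56, SE 0.08, adjusted p = 0.00243). It has 5 probe sets above the filter: another fell too (601 and 668 against 461 and 427, adjusted p = 0.0292 in the probe set fit), and the other 3 did not pass. Of these, 1 was higher on both Ezh2 KO arrays, at 45.3 and 52.7 against 76.1 and 57.4. With all sets averaged the log2 change was -0.30 (adjusted p = 0.268).

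Cmpk2 and Rsad2 are direct neighbours, and their products work in sequence: a mitochondrial nucleotide kinase and viperin, which turns CTP into a chain terminator of viral RNA synthesis. Cmpk2 read 625 and 645 against 388 and 472 and fell 1.47-fold (adjusted p = 0.019). That call was lost without wild-type replicate 1 (adjusted p = 0.0752), wild-type replicate 2 (0.0886) or Ezh2 KO replicate 1 (0.0665). It was also lost when its dimmer probe set, at a log2 change of 0.07, was averaged in (log2 change -0.24, adjusted p = 0.423). Rsad2 read 146 and 76.2 against 74.9 and 122, so the spread within each group exceeded the difference between them (log2 change -0.13, 95% interval -0.88 to 0.63). Its 2 further probe sets were higher on both Ezh2 KO arrays, at log2 changes of 0.36 and 0.35 with adjusted p of 0.703 and 0.597 in the probe set fit.

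Of the 5 tested dynamin-like and membrane effectors 1 fell. Bst2, which encodes tetherin, the protein that holds budding virions at the cell surface, read 638 and 633 against 340 and 389 (log2 change -0.78, SE 0.12, adjusted p = 0.0027). The Ifitm genes, whose products hinder the fusion of virus with endosomes, did not pass. Ifitm2 read 3446 and 3499 against 3632 and 2918 (log2 change -0.09, 95% interval -0.31 to 0.12). Ifitm3 read 508 and 430 against 396 and 436 (log2 change -0.16, 95% interval -0.45 to 0.13). Both pairs of groups overlapped, and both intervals exclude a 2-fold fall.

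The dim members of this group could not be resolved as finely. Ifitm1 read 36.7 and 43.1 against 48.6 and 41.8 (log2 change 0.13, 95% interval -0.68 to 0.95). The GTPase gene Mx1 read 29.2 and 39.0 against 34.1 and 70.2 (log2 change 0.40, 95% interval -0.52 to 1.32), and Mx2 lay between 4.54 and 8.52 on all arrays, under the filter. Stretches around the response element core are shown for Bst2, which fell, and for Ifitm3, which did not pass. They are on the minus strands of chr8:71537562-71537621 and chr7:141010708-141010767 (GRCm38.p6), with each match in capitals.
Bst2: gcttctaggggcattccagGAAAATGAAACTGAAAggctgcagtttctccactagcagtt
Ifitm3: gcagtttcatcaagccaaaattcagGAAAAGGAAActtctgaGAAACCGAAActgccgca
Bst2 holds 2 matches that overlap each other, and a match to the core of the gamma-activated sequence, TTCNNNGAA, which runs into them from the left. Ifitm3 holds 2 separate matches, with a TTCNNNGAA match between them that overlaps the second.

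None of the 8 tested effectors on viral RNA and translation passed in either direction. Eif2ak2, Ifit2 and Oas2 are given by array as the brighter genes of this group, a choice made after their values were seen. Eif2ak2, which encodes the kinase PKR that halts translation on double-stranded RNA, read 551 and 566 against 568 and 561. Its groups overlapped, with a log2 change of 0.02 and a 95% interval of -0.21 to 0.25, and its 2 further probe sets had log2 changes of -0.03 and -0.04. The sign of the first value turned with quantile normalization (-0.01) and median centring (-0.08). Ifit2, whose product binds viral RNA, read 1027 and 1101 against 865 and 1051 (log2 change -0.15, 95% interval -0.39 to 0.08).

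Oas2, a synthase of the 2-5A messenger that activates RNase L, read 365 and 312 against 278 and 292 (log2 change -0.23, 95% interval -0.56 to 0.09, adjusted p = 0.376). Isg20, an exonuclease for single-stranded RNA, was the member nearest a rise. It read 578 and 513 against 692 and 707, with separate groups (log2 change 0.35, adjusted p = 0.0601), and raising the filter to the 50th percentile took it past the threshold (adjusted p = 0.047).

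The dimmer genes of this group had wide intervals. Oasl2 read 50.6 and 64.8 against 39.9 and 1.22 (log2 change -1.24, 95% interval -2.51 to 0.02, adjusted p = 0.21), and Ezh2 KO replicate 2 gave by far the lowest reading. Without Ezh2 KO replicate 1 its log2 change was -2.09 (adjusted p = 0.0131), and without Ezh2 KO replicate 2 it was -0.39. Ifit3 read 41.4 and 61.2 against 12.5 and 49.96 (log2 change -0.62, 95% interval -1.69 to 0.45). Ifit1 read 69.9 and 47.6 against 45.3 and 32.0 (log2 change -0.45, 95% interval -1.27 to 0.38). For these 3 genes the arrays allow neither a 2-fold fall nor an unchanged level to be set aside. Oasl1 had a log2 change of 0.06, and Oas3, at 6.90 to 43.3 over the arrays, was under the filter.

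Promoter stretches of 2 of these genes are shown since both hold the response element core without a call. Ifit1 lies on the plus strand at chr19:34640779-34640838 with 2 matches on the reverse strand, and Eif2ak2 on the minus strand at chr17:78882523-78882579 (GRCm38.p6).
Ifit1: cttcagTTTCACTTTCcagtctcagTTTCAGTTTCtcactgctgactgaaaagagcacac
Eif2ak2: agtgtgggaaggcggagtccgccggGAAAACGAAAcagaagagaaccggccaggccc

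Over the whole list, 30 members had a promoter window in the RefSeq table, from 250 bases before to 50 after a start site. The core GAAANNGAAA was in a window of 15 of the 30, against 3.99% of the 27025 genes in the table. It was found for 2 of the 9 members with a window that fell (Mndal and Bst2), for 10 of 17 that were tested and did not pass, and for 3 of 4 that were not tested (Ifi205, Isg15 and Oas3). The other 5 members that fell, Parp9, Parp14, Zbp1, Ifi27 and Dhx58, are not in these counts, so the shares do not describe all 14. The core TTCNNNGAA, which reads the same on both strands, was in a window of 7 of the 30 (23.3%), against 9.55% of all genes. Here the counts were 3 of 9 members that fell (Bst2, Samhd1 and Ifi35) and 4 of 17 that did not pass. A match is a description of the letters in the window and not evidence of binding.

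In the group of ISG15 conjugation 0 of 2 tested members passed. Herc6, the ligase for ISG15 in mouse, read 431 and 536 against 463 and 599 (log2 change 0.13, 95% interval -0.21 to 0.47). Its 3 further probe sets had log2 changes from -0.16 to 0.33. Usp18, the protease that removes ISG15 and restrains the type I receptor, read 89.5 and 105 against 101 and 82.2 (log2 change -0.08, 95% interval -0.66 to 0.50). Both genes had overlapping groups.

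Of the 7 other tested members 4 fell. Ifi27, a small protein of the inner mitochondrial and nuclear membranes, read 2464 and 2278 against 1049 and 1082 and fell 2.21-fold (log2 change -1.14, SE 0.08, adjusted p = 2.11e-05). Its second probe set read 1367 and 1281 against 694 and 690 and fell too (log2 change -0.92, adjusted p = 0.000361 in the probe set fit). Lgals3bp, a secreted binding partner of galectin-3, read 272 and 310 against 146 and 150 and fell 1.87-fold (adjusted p = 0.00853). Its call was lost without wild-type replicate 2 (log2 change -0.81, adjusted p = 0.0646).

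Xaf1, which binds the apoptosis inhibitor XIAP, read 399 and 419 against 242 and 229 and fell 1.69-fold (adjusted p = 0.00684). Its second set, at 34.4 and 40.1 against 40.1 and 40.7, had a log2 change of 0.08, and the average of both was -0.34 (adjusted p = 0.322). Ifi35, a partner of Nmi, read 3913 and 3647 against 2927 and 2724 (log2 change -0.42, SE 0.07, adjusted p = 0.00455). Of its 2 further sets 1 fell and the other overlapped, and the average of all its sets, the representing one included, had an adjusted p of 0.0577.

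The remaining 3 did not pass. Rtp4 read 155 and 126 against 78.2 and 106 (log2 change -0.54, adjusted p = 0.216). Tor3a, an ATPase of the endoplasmic reticulum, read 803 and 838 against 655 and 719 (log2 change -0.25, adjusted p = 0.134). Sp100, a scaffold of PML nuclear bodies, read 1514 and 1435 against 1390 and 1697 (log2 change 0.06, adjusted p = 0.781), with overlap. Its sign turned with median centring (-0.04), which moved the median of all genes from 0.0066 to -0.09.

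**Figure D3:**
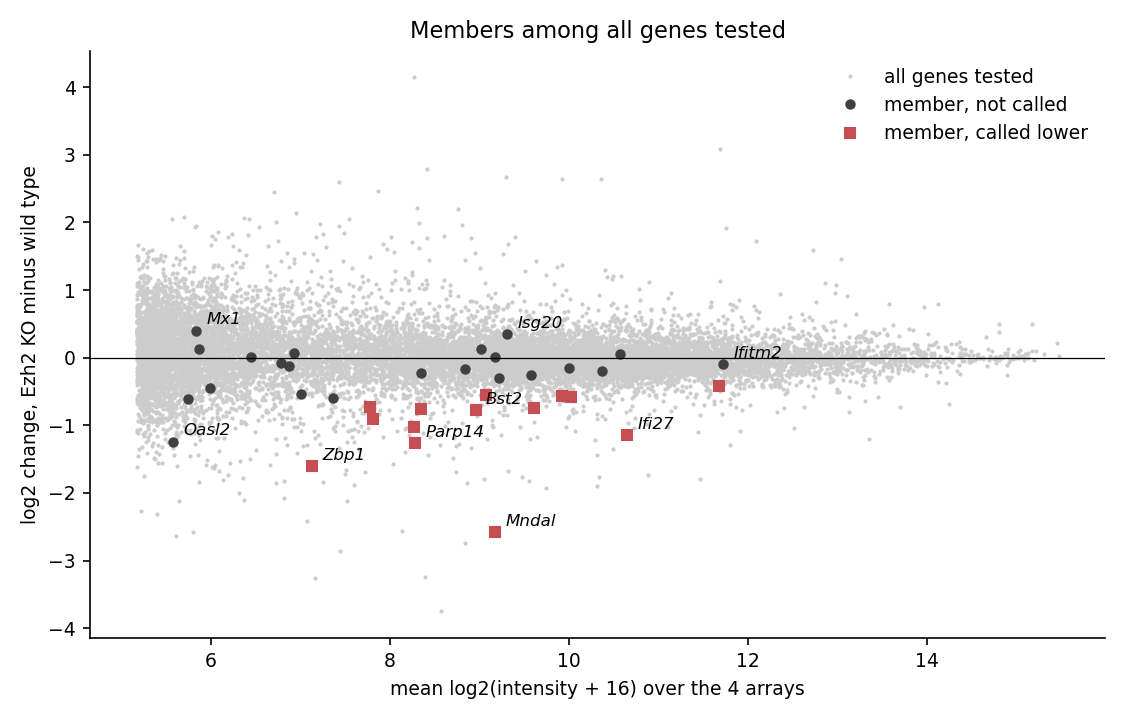
Log2 change, Ezh2 KO minus wild type, against the mean log2(intensity + 16) of 13916 genes (grey), with the members called lower as red squares and the other tested members as dark circles. Members without a call occur at all intensities, from Oasl2 and Mx1 among the dim genes to Ifitm2 at the bright end.

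Of the 22 members without a call, 17 had a 95% interval that excludes a 2-fold fall and 5 did not. The falls that were called began at 1.34-fold, so such an interval can still hold a fall of that size. Those of Ddx58 (to -0.55) and Oas2 (to -0.56) do. The groups overlapped in 13 of the 22, were separate and lower in Ezh2 KO in 8, and were separate and higher in 1. Of all genes tested, 26.2% were separate and lower and 26.2% separate and higher, so separate groups alone are common. The standard error of the log2 change ran from 0.08 to 0.56 among these members, and from 0.07 to 0.26 among the 14 that fell.

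Of the 14 members that fell, 10 were measured by 1 or more additional probe sets past the filter, 15 sets in all. In the probe set fit 5 of these 15 were called lower and 0 higher, and 4 had a positive log2 change. Each of the 5 belongs to another gene: Mndal, Ifi27, Dtx3l, Samhd1 and Ifi35. Over all 63 member probe sets above the filter 18 were lower and 0 higher, where 3.89% of all probe sets tested were lower and 4.03% higher. Dhx58 was not among the genes with a called probe set in that fit (adjusted p = 0.0613).

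**Figure D4:**
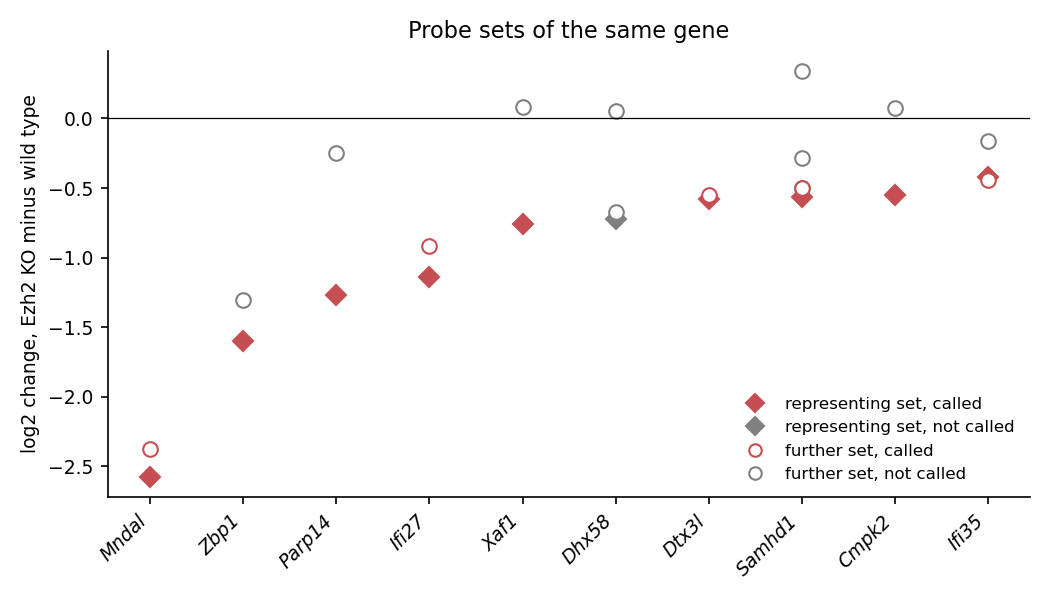
Log2 change, Ezh2 KO minus wild type, of every probe set above the filter for the 10 members that fell and have several; diamonds are the sets that represent the gene, circles the further sets, and red marks a call in the fit over probe sets. For Mndal, Ifi27, Dtx3l, Samhd1 and Ifi35 a circle is red, and for Xaf1, Dhx58, Samhd1 and Cmpk2 a circle lies above 0.

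Other genes of the interferon pathway were counted in 6 further lists. Each count is to be read against the 6.01% of all genes tested that were lower and the 5.55% that were higher. Interferons and receptors had 1 of 7 tested genes lower and 0 higher. The lower gene was Il10rb, a receptor chain shared by interleukin-10 and interferon lambda, at 3870 and 3927 against 2874 and 3061 (log2 change -0.39, adjusted p = 0.00429). The receptor genes Ifnar1, Ifnar2, Ifngr1 and Ifngr2 had log2 changes between -0.08 and 0.10 and did not pass. Ifng, Ifna2 and Ifna4 were under the filter.

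Among JAK-STAT genes 1 of 9 was lower and 1 higher. Irf9, the DNA-binding subunit of ISGF3, read 846 and 863 against 665 and 688 (log2 change -0.33, adjusted p = 0.0452), and Jak2 read 1142 and 1103 against 1402 and 1363 (log2 change 0.30, adjusted p = 0.0365). Both calls were lost when any 1 of the 4 arrays was left out, that of Irf9 also without the filter and that of Jak2 also when arrays were centred on their medians or probe sets averaged; the highest adjusted p was 0.147 for Irf9 and 0.292 for Jak2. Of the interferon regulatory factors 2 of 6 were lower and 0 higher. Irf1, which interferon gamma induces, read 1318 and 1377 against 910 and 966 (log2 change -0.52, adjusted p = 0.00352). Irf8, a factor of the monocyte lineage, read 2014 and 2085 against 1370 and 1386 (log2 change -0.57, adjusted p = 0.00097).

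Sensor adaptors and kinases had 1 of 9 lower and 1 higher. Unc93b1, the chaperone of nucleic acid-sensing Toll-like receptors, read 1752 and 1731 against 1292 and 1214 (log2 change -0.47, adjusted p = 0.0036). Ikbke, a kinase that activates interferon regulatory factors, read 788 and 776 against 1096 and 1112 (log2 change 0.49, adjusted p = 0.00512). A list of further interferon-stimulated genes had 5 of 22 lower and 0 higher, with a median log2 change of -0.08. Without wild-type replicate 1 the count was 3, and the median ran from -0.20 to -0.02 when 1 array was left out.

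Of these 5 genes, the GTPase gene Ifi47 read 2359 and 2139 against 1095 and 1187 (log2 change -0.97), and Nmi, the partner of Ifi35, read 1543 and 1245 against 757 and 809 (-0.81). Trim30a read 1048 and 1109 against 677 and 694 (-0.64). Oas1a, another 2-5A synthase gene, read 2610 and 2475 against 1720 and 2008 (-0.45) and lost its call without wild-type replicate 1 (adjusted p = 0.0665). The fifth, Epsti1, with a log2 change of -0.43, is named after its values were seen, since its call was lost when either wild-type array was left out and when probe sets were averaged (highest adjusted p 0.329).

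Genes typical of the interferon gamma response had 14 of 17 lower and 0 higher, with a median log2 change of -1.03. The GTPase gene Gbp2 read 456 and 400 in the wild type and 26.5 and 34.1 in Ezh2 KO (log2 change -3.26), and Nlrc5, an activator of class I genes, read 462 and 445 against 41.8 and 56.6 (-2.86). The chemokine gene Cxcl9 read 88.0 and 127 against 3.00 and 4.14, and Gbp6 read 113 and 129 against 2.37 and 12.5. Both fell, but their Ezh2 KO readings are under the filter intensity and the size of the fall is not determined: over the alternatives the log2 change ran from -4.56 to -1.34 for Cxcl9 and from -4.17 to -1.37 for Gbp6. Cxcl9 lost its call without wild-type replicate 2 (adjusted p = 0.0572). This list shares all 4 arrays with the antiviral members, and the difference between the lists was not tested.

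**Figure D5:**
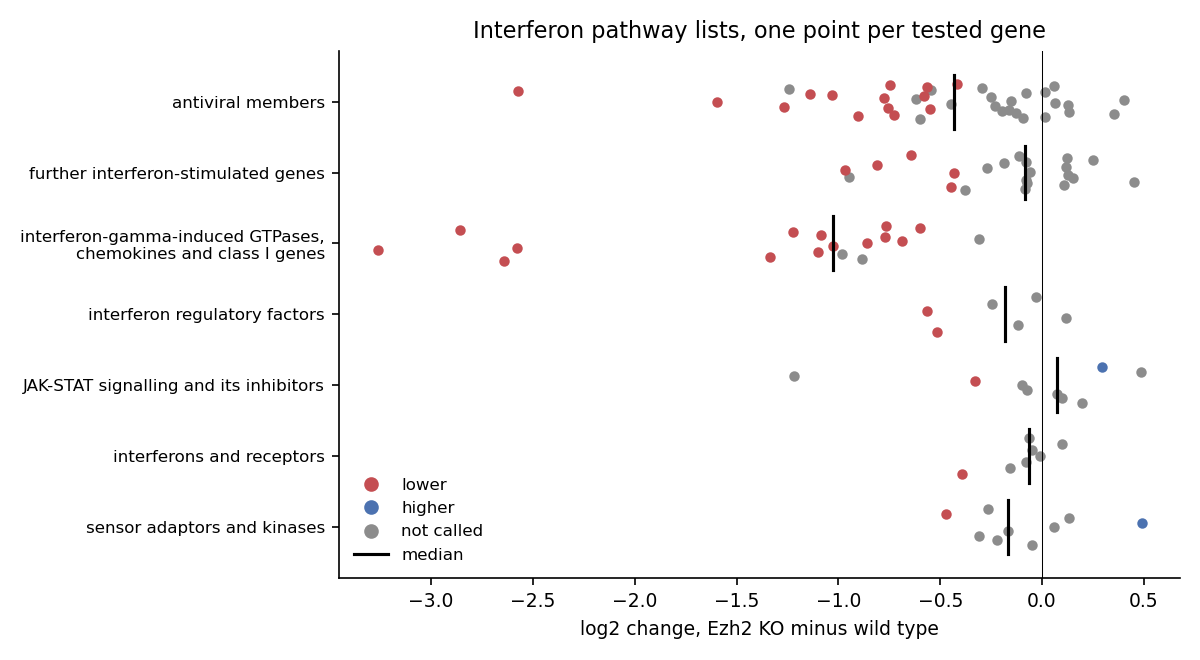
Log2 change, Ezh2 KO minus wild type, of each tested gene of the antiviral members and of 6 other interferon pathway lists, with the median of each list as a black line; red is lower, blue higher, grey not called (limma, adjusted p under 0.05). The medians are -0.43 for the antiviral members, -0.08 for further interferon-stimulated genes and -1.03 for genes of the interferon gamma response.

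Markers of other marrow cells were read on the same arrays. Of T cell markers 3 of 6 were above the filter, and their summed intensity was 193 to 240 in the wild type and 246 to 320 in Ezh2 KO; Cd3d, Cd3g and Cd4 were under the filter. All 4 measured NK cell markers were under it. For plasmacytoid dendritic cells, makers of type I interferon, the sum was 299 to 445 and 308 to 375, mostly from Klk1, with Siglech under the filter. For B cells it was 806 to 824 and 819 to 957, mostly from Cd79b, with Cd79a under the filter. Of the markers of these 4 cell types that were above the filter, 0 were lower and 0 higher. Erythroid markers summed to at most 131 and endothelial and stromal markers to at most 213 on any array, with 0 calls.

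Some myeloid and macrophage markers changed as well. All 8 myeloid markers were above the filter, with sums of 76362 and 77297 in the wild type and 81654 and 74613 in Ezh2 KO. The Fc receptor gene Fcgr3 (log2 change -0.72) and Cebpa (-0.63) fell, while Itgam (0.74) and Csf1r (0.48) rose. Cebpa lost its call without wild-type replicate 2 (adjusted p = 0.0511) and Csf1r with averaged probe sets (0.0582). Macrophage markers summed to 9184 and 10369 against 6921 and 7272, with 5 of 8 above the filter. Vcam1 fell (-1.80) and the iron exporter gene Slc40a1 rose (0.51), and C1qa, C1qc and Cd163 were under the filter. Without Vcam1 the other 7 summed to 4367 and 4600 against 5481 and 5694. That higher sum in Ezh2 KO came from Slc40a1, at 2735 and 2930 against 4033 and 4043. Adgre1 read 1567 and 1621 against 1332 and 1576, with overlap, and the rest were dim. The sum therefore does not describe the macrophage markers as a set. The part of these shifts in the result for the antiviral genes was not tested.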

How the data were processed

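Total RNA of 2 wild-type and 2 Ezh2 KO samples was extracted with Trizol, per the labels' protocols. The authors deposited probe set intensities on a linear scale; the submitters' processing notes name Affymetrix Expression Console, and its version and summary method are not given in the sources used here. On every array the 2% trimmed mean intensity equals 500, so a difference in total mRNA per cell would not show. Detection calls were not used here.

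Of 45101 probe sets, 64 controls were left out, 34945 had 1 gene symbol, 932 several and 9160 none; 34741 matched RefSeq genes of GRCm38.p6 by gene identifier. Of several probe sets for a gene, the one with the highest mean log2(intensity + 16) was taken, and genes above the 30th percentile (an intensity of 19.96) were tested with limma 3.58.1 (trend prior, R 4.3.3) and Benjamini-Hochberg adjustment over 13916 genes. A second fit took 25576 probe sets. The total degrees of freedom were 9.56 per gene. The limma script was tested on simulated data. Members, lists and tests were chosen with earlier results of these data known, and no list test was made. Members that passed are given by array, as are up to 4 others per role with the largest change, and up to 4 genes of each further list that passed; exceptions are named as such. Quantile normalization, median centring, pseudocounts of 1 and 64, other filters and priors, averaged probe sets, the replicate block and leaving out each array were tried. Promoters came from the RefSeq table of GRCm38.p6. Python 3.11.15 and matplotlib 3.10.9 drew the figures.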

Additional observations from a re-analysis of the deposited data

How the results depend on the processing

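Of the 14 members that fell, 7 passed in all 13 alternatives other than the single prior variance, and 0 changed sign in any. The count of members lower in Ezh2 KO was 8 with averaged probe sets and 0 with the single prior variance, where 0 of all genes were lower or higher and 0 member probe sets were lower. The count of members higher was 1 with the filter at the 50th percentile and 1 with the replicate block (Isg20). The members' median log2 change was -0.53 with median centring, -0.29 with a pseudocount of 64 and -0.29 with averaged probe sets (-0.2856 and -0.2851), and ran from -0.50 to -0.32 without 1 array. Over all genes, averaged probe sets gave 551 lower and 477 higher, median centring 402 higher against 1014 lower, and leaving out 1 array 386 to 910 lower and 489 to 736 higher. The labels state no pairing of same-numbered arrays. Such arrays showed little shared deviation (correlation 0.041 across genes), which cannot settle whether the samples were handled in pairs. With the replicate block 1437 genes were lower and 1282 higher, and 1 member probe set was higher.

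Signs turned only in members without a call: with quantile normalization for Eif2ak2 (-0.012), Oasl1 (-0.0031) and Ifi203 (-0.082), with median centring for Sp100 (-0.038), Eif2ak2 (-0.082), Oasl1 (-0.035) and Ifi203 (-0.085), and with averaged probe sets for Eif2ak2 (-0.019) and Rsad2 (0.20). Leaving out 1 array turned Eif2ak2 (-0.0036 to 0.034), Herc6 (-0.053 to 0.31), Oasl1 (-0.067 to 0.19), Rsad2 (-0.53 to 0.28), Usp18 (-0.20 to 0.045), Ifi203 (-0.13 to 0.16), Ifitm2 (-0.25 to 0.065) and Sp100 (-0.084 to 0.20). The cause of these changes was not tested. With 2 arrays a group and no detection calls, readings near the filter intensity cannot be told from background.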
